A study of Mus musculus with 3 samples.

Results

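Among tumor-infiltrating pmel CD8+ T cells, 4336 of 26899 cells carried at least 1 UMI (unique molecular identifier, a tag that marks 1 captured RNA molecule) of each of *Pdcd1*, *Havcr2* and *Entpd1*, the genes of PD-1, TIM-3 and CD39. These cells were selected on those 3 transcripts within the 3 libraries of the series, among cells of 5000 to 120000 UMIs with at most 20% of UMIs from mitochondrial genes, so their levels of the 3 genes are a description and were not tested. The deposited matrices held 31026 cell barcodes in all. The coexpressing cells numbered 1320 of 7279 in the sIL-2 library, 854 of 10729 in the IL-2/21-Trikine library and 2162 of 8891 in the sIL-2 + IL-21 library, and values in sets of 3 follow that order of libraries throughout.

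The pmel cells, Thy1.1+ CD8+ T cells with a transgenic receptor for the melanoma antigen gp100, were activated with gp100 peptide and 10 nM cytokine and transferred, 5 days after tumor injection, into C57BL/6 mice that bore B16F10 melanoma and had received 6 Gy of radiation. The cells were preconditioned with sIL-2, a modified IL-2 that binds IL-2Rβ tightly, with the IL-2/21-Trikine, in which sIL-2 is joined to an IL-21 that binds IL-21Rα without signaling, or with sIL-2 and IL-21 together, called sIL-2 + IL-21 or the combined preconditioning here. Mice then received 4 doses of 2.5 μg; mice given Trikine-preconditioned cells received the Trikine, and the mice of both other groups received sIL-2 alone, so the sIL-2 + IL-21 label describes the preconditioning of the cells and not the dosing of the mice. Tumors were taken on day 18 after tumor injection, and live Thy1.1+CD8+ cells were sorted for 10x 3′ sequencing. All 3 groups share the transgenic receptor, the irradiation and a cytokine treatment, and no untreated library was analysed here. Each treatment had 1 library, and how many mice were pooled into it is not given in the sources used here, so differences between treatments had no replicate check and no test, and intervals on shares and levels cover counting error only. The libraries held 132104871, 167782625 and 168627825 UMIs, with a median of 13631, 12260 and 15421 UMIs per cell within the limits.

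PD-1 is an inhibitory receptor that dampens T cell receptor and CD28 signaling when it binds PD-L1, and TIM-3 is a further inhibitory receptor found on chronically stimulated T cells. CD39 is a surface ectonucleotidase that breaks down extracellular ATP, the step that feeds adenosine production by CD73. CD8+ T cells that carry these molecules together in tumors are commonly described as antigen-experienced, terminally differentiated or exhausted, whereas less differentiated T cells keep the transcription factor TCF-1 (*Tcf7*) and lymph node homing receptors.

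The label was first checked against marker genes. Every coexpressing cell had UMIs of *Cd3d*, *Cd3e*, *Cd3g* or *Trac*, and all 10 T cell identity genes were detected in each library, led by *Cd3g*. The CD4 and regulatory T cell markers *Cd4* and *Foxp3* were scarce: the 4 markers of that list summed to 31.8, 27.7 and 22.7 CPM, against 5291 CPM for the T cell identity genes with sIL-2. Only 4 of the 26899 cells lacked those 4 T cell receptor complex genes, and 0 of the 4 were coexpressing. Of 49 cells with UMIs of 5 or more myeloid genes, 21 (42.9%) were coexpressing, but all except 1 of the 49 also held T cell receptor complex RNA. Cells without that RNA were thus too few to give a background share for the rule. Surface protein was not measured; a cell with a UMI of each transcript is meant wherever the text says coexpressing.

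The 3 transcripts were not equally abundant in the coexpressing cells (rule genes, described without a test). *Pdcd1* (ENSMUSG00000026285) had a median of 7, 4 and 5 UMIs per coexpressing cell, *Havcr2* (ENSMUSG00000020399) of 6, 3 and 5, and *Entpd1* (ENSMUSG00000048120) of 2, 1 and 1. As CPM, counts per 1000000 UMIs, summed over the coexpressing cells, *Pdcd1* was at 263, 186 and 218, *Havcr2* at 236, 147 and 216, and *Entpd1* at 73.4, 64.8 and 66.3. In CPM all 3 transcripts were lowest in the IL-2/21-Trikine library, and *Entpd1* was the scarcest in each library. Over all cells within the limits, *Pdcd1* was detected in 56.2%, 45.8% and 64.8%, *Havcr2* in 53.6%, 30.9% and 58.5%, and *Entpd1* in 30.3%, 21.7% and 35.2%.

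Few members sat at the edge of the rule for every gene, but most did for at least 1 gene. Exactly 1 UMI of each gene was found in 26, 38 and 38 coexpressing cells, and at least 1 of the genes had exactly 1 UMI in 54.4%, 70.6% and 59.6% of them. Between 5000 and 5500 UMIs, 1 of 67, 1 of 340 and 0 of 214 cells were members, and just outside the limit, between 4500 and 5000 UMIs, 2 of 63, 0 of 265 and 4 of 159 cells held all 3 transcripts. Above 120000 UMIs, all 13, 7 and 4 cells held all 3 transcripts and were left out. Detection of all 3 transcripts thus depended on depth. The coexpressing cells had a median of 26853, 23453 and 25816 UMIs against 9177, 9178 and 9134 in the 1687, 3919 and 1723 cells lacking all 3 genes.

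The share of coexpressing cells was 18.1% [17.3, 19.0], 7.96% [7.45, 8.49] and 24.3% [23.4, 25.2] (exact binomial 95% intervals). Relative to sIL-2, the IL-2/21-Trikine share was 0.439-fold [0.405, 0.476], and relative to the combined preconditioning it was 0.327-fold [0.304, 0.352]. The sIL-2 share was 0.746-fold that of the combined preconditioning [0.702, 0.793]. In the depth bin with a median of 14696, 14651 and 14694 UMIs the shares were 14.02%, 7.66% and 18.04%, and in the deepest of 10 bins they were 60.7%, 36.4% and 65.7%. The IL-2/21-Trikine library had the lowest share in each bin. After every cell was thinned to 5000 UMIs, 3.28%, 1.07% and 3.64% of cells remained coexpressing, and the sIL-2 share was then 0.901-fold that of the combined preconditioning [0.765, 1.06], an interval that includes equal shares.

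**Figure D1:**
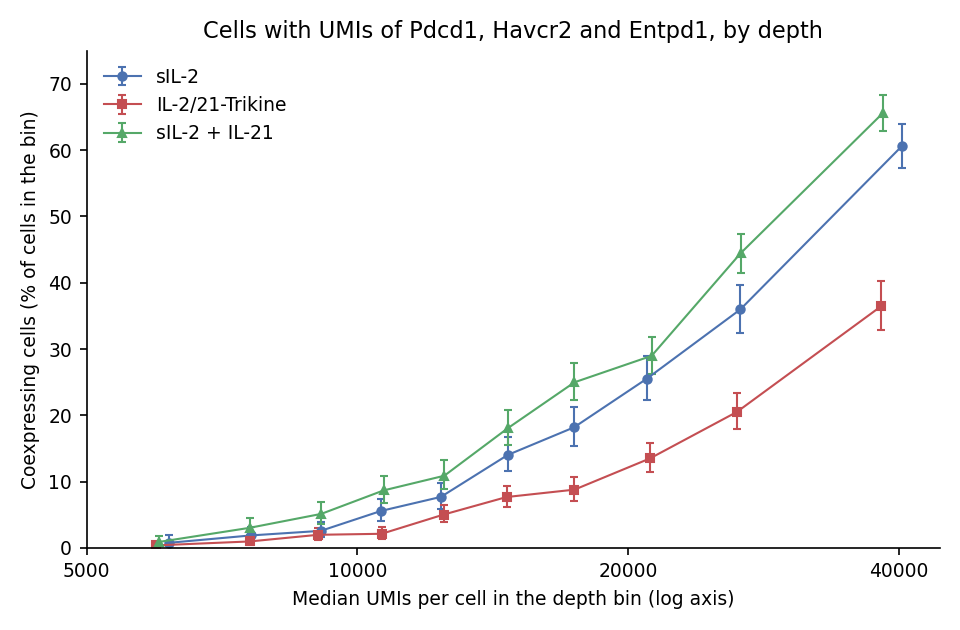
Share of cells with UMIs of *Pdcd1*, *Havcr2* and *Entpd1* (percent, vertical axis) against the median UMIs per cell of 10 depth bins (horizontal log axis) in the 3 libraries, with exact binomial 95% intervals. The share rises with depth in each library, and the IL-2/21-Trikine points lie lowest, from 0.365% in the shallowest bin to 36.4% in the deepest.

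The 3 transcripts occurred together more often than the product of their separate shares within 20 depth bins would give, by 1.226, 1.498 and 1.204 times in the 3 libraries. *Pdcd1* with *Havcr2* and no UMI of *Entpd1* was found in 20.4%, 11.5% and 21.8% of cells, and *Pdcd1* alone in 14.4%, 20.9% and 14.7%, so *Pdcd1* alone was the most common partial pattern with IL-2/21-Trikine and the pair elsewhere. *Entpd1* without the other two was found in 5.52%, 6.23% and 3.34% of cells. The sIL-2 library shared 31 barcodes with the IL-2/21-Trikine library, of which 0 were coexpressing in both, and 18 with the third library, of which 0 were. The IL-2/21-Trikine library shared 43 with the third library, of which 1 was coexpressing in both.

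To ask what else these cells expressed at equal depth, each coexpressing cell was paired to the cell of its own library that lacked all 3 genes and was nearest in total UMIs, within 0.1 log2 units. Pairs were found for 436 (33.0%), 572 (67.0%) and 570 (26.4%) of the coexpressing cells, 1578 of 4336 in all, since few deep cells lacked all 3 genes. The tested cells are therefore the shallower part of the population, with a median of 15485, 18750 and 14693 UMIs against 15450, 18745 and 14489 in their partners. Raw UMIs were summed per library and class and tested with edgeR's quasi-likelihood test with the library as a block. The 3 libraries, which differ in treatment, thus served as the replicates. A p-value weighs the size of a difference against its variation over these 3 libraries, using variation estimates shared between genes. It does not speak for libraries beyond these 3, and an uneven difference can still have a small p-value. Of 11149 genes tested, 1721 (15.4%) were higher and 1691 (15.2%) were lower in coexpressing cells at an adjusted p under 0.05, with a median log2 difference of 0.00 over all genes. Without the library term 208 were higher and 88 lower, and of the lists described next the cytokine receptor, antigen signal, proliferation, interferon-stimulated, glycolysis and hypoxia, and metallothionein lists then had 0 genes called in either direction, and the other lists at most 3, apart from the cytotoxic and the stem and memory lists with 5 each. The shares of 15.4% and 15.2% are the background for the list counts of this fit only. Other fits called other shares of all genes. Higher and lower were 725 and 846 of 12029 with DESeq2, and 963 and 966 of 9445 with cells thinned to 5000 UMIs. They were 859 and 839 of 11246 without the sIL-2 + IL-21 library, and 1199 and 1451 of 11108 without the IL-2/21-Trikine library. A smaller list count in such a fit is therefore not read as a change of the list. A gene at or near 0 in the partners can pass the filter on low counts through the coexpressing cells alone, so its direction is no support.

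Cytotoxic effector genes were higher. Of 17 genes on the cytotoxic list, 16 were tested, 13 were called higher and 0 lower, with a median log2 difference of 1.82 beside 0.00 over all genes and a background of 15.4% called higher. The 13 and the median include *Gzmg*, which was near 0 in the partners, so its direction is no support. *Gzmm*, *Serpinb9* and *Srgn* were the tested genes without a call, at log2 differences of -0.40, -0.04 and -0.02. *Prf1* (ENSMUSG00000037202), the gene of the pore-forming protein perforin, was at 244, 243 and 359 CPM in the coexpressing cells and 32.7, 32.6 and 55.1 CPM in their partners, a log2 difference of 2.83 ± 0.08 (SE, n = 3 libraries) with an adjusted p of 1.5e-10 and a fold of 7.11. Each SE printed here comes from the edgeR fit, as the log2 difference over the root of its F statistic. It is not the standard error of the 3 library ratios, which can be larger. The coexpressing cells were above their partners in all 3 libraries, and no value of 1 class overlapped the range of the other.

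Most granzyme genes tested, which encode serine proteases released with perforin, were also called higher, *Gzmm* being the exception, with unequal starting levels. *Gzmb* (ENSMUSG00000015437), the classical apoptosis-inducing granzyme, was at 5029.7, 4651 and 5924 CPM against 1305, 1946 and 2604, 2.76-fold higher (log2 1.46 ± 0.11 (SE, n = 3 libraries), adjusted p = 8.6e-07, edgeR). *Gzma* (ENSMUSG00000023132) was at 6369, 2438 and 6782 CPM against 1369, 374 and 2214, 4.53-fold higher (log2 2.18 ± 0.14 (SE, n = 3 libraries), adjusted p = 2.9e-07, edgeR). Neither range overlapped that of the partners, although the *Gzma* level of the IL-2/21-Trikine coexpressing cells was little above that of the sIL-2 + IL-21 partners, and *Gzma* was lowest with IL-2/21-Trikine in both classes.

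*Gzmc* (ENSMUSG00000079186) was at 3130.5, 4599.6 and 5912 CPM against 277, 663 and 1659.8, with a log2 difference of 2.70 ± 0.21 (SE, n = 3 libraries) and an adjusted p of 1.2e-06 (edgeR). In both classes it was lowest with sIL-2 and highest with sIL-2 + IL-21, and its call was lost when the library term was left out of the fit. *Gzmf* (ENSMUSG00000015441) rose from 11.6, 13.4 and 242 CPM to 1036, 710.1 and 1617 CPM, with a log2 difference of 4.67 ± 0.50 (SE, n = 3 libraries) and an adjusted p of 1.6e-05 (edgeR). Its log2 ratios in the libraries were 6.46, 5.73 and 2.72, with an SD of 1.98, so the SE of the fit understates their spread. *Gzmd*, at 479, 212 and 400 CPM against 21.7, 1.63 and 35.0, had a log2 difference of 4.45. *Gzme*, at 298, 144 and 326 CPM against 13.7, 2.63 and 47.0, had a log2 difference of 3.88. Both were low in the IL-2/21-Trikine partners, so their ratios in that library rest on few UMIs. *Gzmg* was low in the partners, at 42.9, 11.4 and 36.3 CPM against 0.847, 0.816 and 2.81, so its direction is no support. *Gzmc* to *Gzmg* are close paralogs, so how reads were split between them is uncertain. *Gzmk*, a granzyme of memory-like effector cells, was scarcer, at 51.2, 12.1 and 25.3 CPM against 4.798, 1.904 and 5.05 (log2 2.82).

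The smallest differences among the called genes of the list were those of *Fasl*, *Ctsw* and *Nkg7*, which cells lacking all 3 transcripts also expressed. *Nkg7*, the gene of a cytotoxic granule protein, was at 1620.3, 1250.5 and 1294 CPM against 1209, 986 and 979 (log2 0.39). *Fasl*, the death ligand, was at 147, 109 and 118 against 119, 91.05 and 96.1 (log2 0.29). Per cell, the summed share of UMIs from the cytotoxic list had a median of 1.74%, 1.35% and 2.099% in the paired coexpressing cells and 0.671%, 0.531% and 0.835% in their partners. Across all coexpressing cells its 10th percentile was 0.783%, 0.569% and 1.03% and its 90th 4.41%, 3.13% and 4.701%, a spread of over 4-fold within each library. With the library term left out, 5 of the 16 tested genes were called higher, and without the sIL-2 + IL-21 library 11 were.

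**Figure D2:**
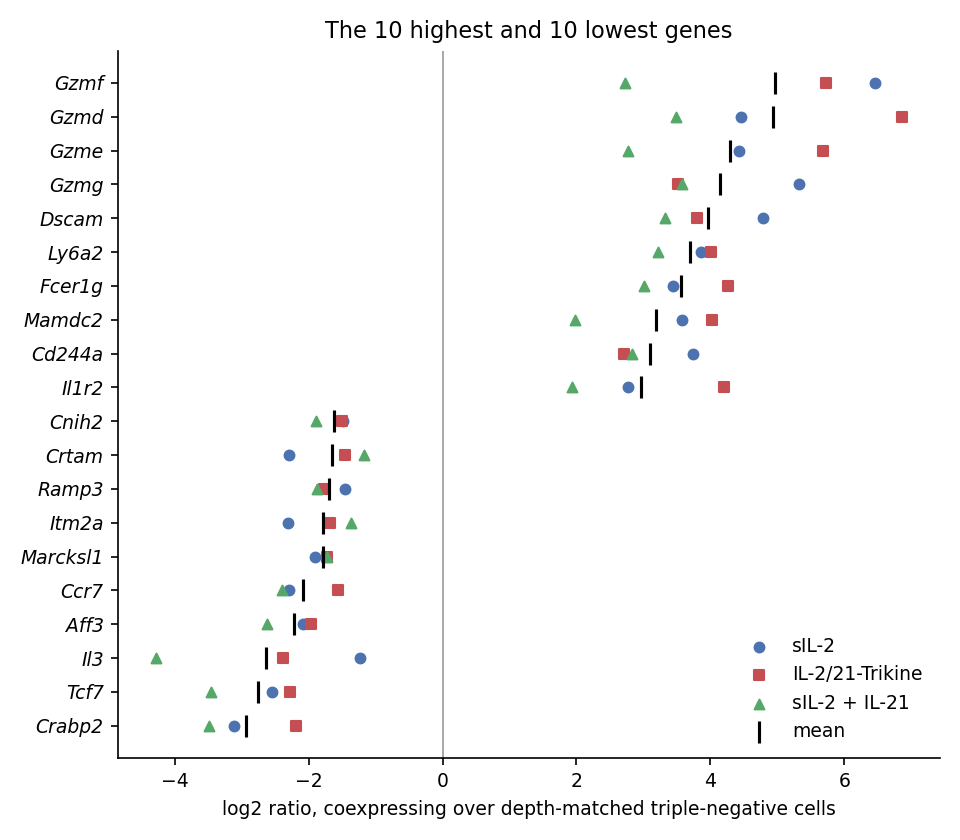
Log2 ratio of CPM in coexpressing cells over depth-matched cells lacking *Pdcd1*, *Havcr2* and *Entpd1* (horizontal axis) for the 10 highest and 10 lowest genes, with 1 point per library and a bar for the mean of the 3. The rule that chose these genes required the same direction in all 3 libraries, so the side of 0 is fixed by that choice; *Gzmf* is at 6.46, 5.73 and 2.72, and *Crabp2* is lowest by the mean.

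The same contrast appeared in how many cells had a UMI once every paired cell was thinned to 5000 UMIs. *Prf1* was detected in 45.2% [40.4, 49.99], 46.5% [42.4, 50.7] and 57.4% [53.2, 61.5] of coexpressing cells and in 11.5%, 13.8% and 18.1% of their partners. Unthinned, the shares were 69.04%, 75.2% and 83.2% against 34.4%, 36.2% and 40.9%. *Gzmf* was detected in 24.5%, 26.4% and 43.7% against 4.82%, 3.85% and 17.9%, so most coexpressing cells had no UMI of it at this depth. *Tcf7* was detected in 8.03% [5.65, 10.99], 4.196% [2.71, 6.18] and 2.11% [1.09, 3.65] of coexpressing cells and in 33.9%, 26.9% and 22.3% of their partners. Unthinned, the shares were 15.8%, 14.5% and 5.79% against 56.4%, 54.5% and 38.9%, lowest with sIL-2 + IL-21 in both classes.

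Stem and memory genes were mostly lower. Of 16 genes, all tested, 10 were called lower and 3 higher, with a median log2 difference of -0.42 and a background of 15.2% called lower. *Tcf7* (ENSMUSG00000000782), the gene of TCF-1, was at 18.5, 15.2 and 4.697 CPM in coexpressing cells and 109.5, 76.4 and 53.1 CPM in their partners, a log2 difference of -2.66 ± 0.15 (SE, n = 3 libraries) with an adjusted p of 7.2e-08 (edgeR). Its lowest level in either class was in the coexpressing cells of the sIL-2 + IL-21 library, and the classes did not overlap.

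*Ccr7* (ENSMUSG00000037944), a chemokine receptor for lymph node entry, was at 127, 203 and 113 CPM against 623, 611 and 588 (log2 -2.08 ± 0.13 (SE, n = 3 libraries), adjusted p = 1.4e-07, edgeR). *Slamf6*, a receptor of progenitor-like cells, was at 5.47, 2.98 and 3.803 CPM against 18.2, 15.8 and 13.4 (log2 -1.98). For both receptors the partners' levels were above every coexpressing value, and *Ccr7* was highest among coexpressing cells in the IL-2/21-Trikine library.

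The transcriptional regulators *Id3* (log2 -1.94) and *Bach2* were lower too, *Bach2* at 405, 250.3 and 191 CPM against 759.7, 493 and 456 (log2 -1.04 ± 0.08 (SE, n = 3 libraries), adjusted p = 8.3e-07, edgeR). *Bach2*, a repressor that restrains effector differentiation, was lowest with sIL-2 + IL-21 in both classes, and the classes did not overlap. Higher instead were *Il7r* (log2 0.39), *Bcl2* (log2 0.25) and *Lef1* (log2 0.24), which encode the IL-7 receptor, an anti-apoptotic protein and a relative of TCF-1. Of these, *Bcl2* and *Lef1* were not called without the IL-2/21-Trikine library, when thinned to 5000 UMIs, with DESeq2 or when pairs were matched on proliferation RNA. With the library term left out, 5 of the stem and memory genes were called lower and 0 higher.

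Other inhibitory receptors were split. Of 14 genes tested, 6 were higher, 3 were lower and 5 were not called, beside 15.4% and 15.2% of all genes, with a median log2 difference of 0.21. With cells thinned to 5000 UMIs, with at least 2 UMIs of each rule gene or with DESeq2, 2 were higher and 2 lower in each case, and without the library term 1 and 1. *Cd244a* (ENSMUSG00000004709), the gene of the receptor 2B4, had the largest difference, at 51.7, 31.5 and 49.2 CPM against 3.67, 4.72 and 6.62 (log2 3.08 ± 0.16 (SE, n = 3 libraries), adjusted p = 3.5e-08, edgeR). *Klrg1*, a receptor of terminal effector cells and 1 of the 6, was low in the partners, at 7.72, 1.54 and 2.35 CPM against 1.27, 0.272 and 2.02. Its direction is therefore no support, and it was not called without the sIL-2 library. *Ctla4*, which competes with CD28 for its ligands, was at 718, 522 and 538 CPM against 451, 413 and 417 (log2 0.46). *Tigit* (log2 0.49), *Vsir* (log2 0.24) and *Cd200r1* (log2 0.47) were called higher with small differences.

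*Lag3*, an inhibitory receptor for MHC class II, was not called: its level was 116, 66.97 and 61.9 CPM against 86.1, 60.8 and 64.4, higher in 2 of 3 libraries, with a log2 difference of 0.18 ± 0.09 (SE, n = 3 libraries) and an adjusted p of 0.16 (edgeR). *Cd160*, a receptor that binds HVEM, was lower, at 167, 124 and 108 CPM against 316, 198 and 205 (log2 -0.84), as was *Btla*, another HVEM receptor, at 6.597, 9.76 and 6.04 CPM against 25.4, 24.1 and 15.3 (log2 -1.49). Without the IL-2/21-Trikine library, 3 of the inhibitory receptors were called higher and 2 lower. Without the sIL-2 + IL-21 library, 3 were called higher and 3 lower.

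Among transcription factors of effector and exhausted T cells, 5 of 16 tested were higher and 5 lower, beside 15.4% and 15.2% of all genes, with a median log2 difference of 0.03; without the library term 1 was higher and 0 lower. *Id2*, an inhibitor of E proteins that favors effector cells, was at 949, 659 and 721 CPM against 341, 302 and 319 (log2 1.26 ± 0.08 (SE, n = 3 libraries), adjusted p = 1.3e-07, edgeR). *Prdm1*, which encodes Blimp-1, was scarcer, at 29.1, 15.003 and 20.5 CPM against 8.04, 1.72 and 7.86 (log2 1.95), and *Ikzf2*, the gene of Helios, was at 165, 192 and 188 against 75.5, 138 and 63.2 (log2 1.04). *Tbx21* (log2 0.39) and *Batf* (log2 0.38) were higher by less.

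The nuclear receptors induced by T cell receptor signaling were lower. *Nr4a1* was at 209, 90.6 and 131 CPM against 417, 160.3 and 178 (log2 -0.75), *Nr4a2* had a log2 difference of -0.48 and *Nr4a3* of -0.38, the latter lower in 2 of 3 libraries. *Zeb2*, a factor of terminal effector cells, was also lower, at 139.5, 86.9 and 77.8 CPM against 216, 154 and 118 (log2 -0.68). *Tox* (ENSMUSG00000041272), a central factor of T cell exhaustion, was not called, at 49.7, 37.3 and 11.2 CPM against 33.02, 45.4 and 16.3 (log2 -0.02 ± 0.16 (SE, n = 3 libraries), adjusted p = 0.93, edgeR): its summed level was higher in coexpressing cells with sIL-2 and lower in the other libraries, and without the sIL-2 library it was called lower (log2 difference of Tox, -0.36). The share of cells with a *Tox* UMI was not higher with sIL-2: unthinned it was 24.1%, 31.8% and 10.7% in coexpressing cells against 24.5%, 32.3% and 13.9%, and thinned 13.3%, 14.9% and 5.26% against 13.8%, 17.7% and 5.61%. Of 16 further genes induced by antigen signals, 3 were higher, a share near the 15.4% of all genes, and 7 lower, with a median log2 difference of -0.09. Without the sIL-2 + IL-21 library 1 was higher and 6 lower (median -0.29), and with DESeq2 1 and 5. *Egr2*, a target of calcium signaling, was among the lower (log2 -0.68), and its relative *Egr3* among the higher (log2 0.43), a sign that turned against cells lacking at least 1 of the 3 genes.

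Cytokine and chemokine genes were more often lower than higher. Of 15 tested, 8 were lower and 2 higher, with a median log2 difference of -0.30. *Xcl1* (ENSMUSG00000026573), a chemokine for cross-presenting dendritic cells, was at 1823, 1869 and 1511 CPM in coexpressing cells and 6276, 4661 and 4566 CPM in their partners (log2 -1.56 ± 0.08 (SE, n = 3 libraries), adjusted p = 3.4e-08, edgeR), with no overlap. The higher genes were *Spp1* (osteopontin), at 924, 559 and 872 CPM against 164, 160.3 and 404 (log2 1.79; 1.64 without cells with myeloid RNA), and *Csf1*, the macrophage growth factor, at 75.7, 59.5 and 95.5 against 34.9, 26.9 and 39.4 (log2 1.19).

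*Ifng*, the gene of the main effector cytokine IFN-γ, was not called: it was at 819.5, 424 and 362 CPM against 639, 479.7 and 558, higher in the sIL-2 library and lower in both others. *Il2* was called lower (log2 -1.59, adjusted p = 0.039, edgeR) at 18.1, 0.904 and 0.783 CPM against 14.7, 16.7 and 9.88, but with sIL-2 it was above its partners, and its UMIs came from 15, 9 and 7 coexpressing cells and 19, 22 and 11 partners; the call was lost without the IL-2/21-Trikine library and without the sIL-2 + IL-21 library. *Il3* (log2 -2.99), a hematopoietic growth factor, was among the 10 lowest genes, with its largest drop in the sIL-2 + IL-21 library. Its UMIs also came from few cells, 11, 8 and 9 coexpressing cells and 12, 12 and 33 partners. Without the sIL-2 + IL-21 library, 4 genes of the list were called lower.

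Receptors for cytokines were more often higher, with 9 of 16 tested higher and 2 lower, beside 15.4% and 15.2% of all genes, and a median log2 difference of 0.30. *Il1r2* (ENSMUSG00000026073), the decoy receptor for IL-1, was at 26.2, 29.9 and 81.5 CPM against 3.67, 1.45 and 20.996 (log2 2.61 ± 0.26 (SE, n = 3 libraries), adjusted p = 8.0e-06, edgeR). *Il10ra*, the IL-10 receptor chain, was at 60.6, 31.000 and 21.8 CPM against 23.003, 11.2 and 9.99 (log2 1.35), and *Il18r1* at 299, 193 and 281 against 188, 126 and 143 (log2 0.76). *Il1r2* was highest in both classes with sIL-2 + IL-21.

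The receptors for the study's own cytokines were split. *Il2rb*, the chain that sIL-2 binds, was higher, at 549, 333 and 463 CPM against 439, 287 and 350.2 (log2 0.32 ± 0.06 (SE, n = 3 libraries), adjusted p = 0.0026, edgeR). *Il21r*, the receptor chain targeted by the Trikine, was lower, at 124, 98.1 and 112 CPM against 209, 146 and 142 (log2 -0.55 ± 0.08 (SE, n = 3 libraries), adjusted p = 1.9e-04, edgeR). *Il2ra* (log2 -0.13) and the shared γ chain gene *Il2rg* (log2 0.01) were not called. Of 13 STAT target genes, 2 were higher, a share like the 15.4% of all genes, and 5 lower (0 and 2 without the library term), among the latter *Stat5a*, at 49.8, 44.4 and 42.8 CPM against 131, 91.2 and 83.1 (log2 -1.12), and *Stat3* (log2 -0.19).

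Residency and homing genes were higher in 9 of 15 tested and lower in 1, with a median log2 difference of 0.29. The 9 include *Zfp683*, at 4.07, 3.43 and 5.82 CPM against 1.98, 0.907 and 2.69. It was low in the partners, so its direction is no support. *Ccr2* (ENSMUSG00000049103), a receptor for inflammatory chemokines, was at 314, 214 and 290.1 CPM against 108, 82.8 and 92.3 (log2 1.53 ± 0.07 (SE, n = 3 libraries), adjusted p = 2.6e-08, edgeR). *Itga1*, which encodes the collagen-binding integrin CD49a, was at 95.2, 50.3 and 46.3 CPM against 37.3, 17.4 and 11.8 (log2 1.59), and *Runx3*, a factor of CD8 and resident T cells, at 224, 205 and 278 against 113, 96.7 and 107 (log2 1.15). *Cd69*, an early activation and retention receptor, was the gene called lower (log2 -0.24), a call lost without the sIL-2 + IL-21 library.

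Of 9 other genes of ATP and adenosine handling that were tested, 0 were called higher and 6 lower, with a median log2 difference of -0.67. *Adora2b*, an adenosine receptor gene, was not called, at 3.93, 3.43 and 3.02 CPM against 2.82, 1.45 and 2.81 (log2 0.60), but was called higher without cells with myeloid RNA (log2 difference of Adora2b, 0.79), and *P2rx7* and *Ampd3* did not pass the count filter. *Nt5e*, the gene of CD73, which turns AMP into adenosine, was at 21.8, 7.77 and 2.12 CPM against 42.3, 14.6 and 10.4 (log2 -1.15 ± 0.18 (SE, n = 3 libraries), adjusted p = 4.0e-04, edgeR), and it was lowest with sIL-2 + IL-21. The adenosine kinase gene *Adk* (log2 -0.92), the adenosine deaminase gene *Ada* (log2 -0.70), the nucleoside transporter gene *Slc29a1* (log2 -0.67) and the ATP receptor gene *P2rx4* (log2 -1.15) were lower as well.

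In the paired cells, proliferation genes were lower in 13 of 22 and higher in 0, with a median log2 difference of -0.31. Their summed share of UMIs had a median of 0.0339%, 0.119% and 0.0606% per paired coexpressing cell and 0.0342%, 0.145% and 0.0667% per partner, and of 0.0547%, 0.163% and 0.189% over all coexpressing cells, most of which had no partner of like depth. *Top2a*, a topoisomerase of dividing cells, was at 154, 401 and 223 CPM against 195, 569.6 and 383 (log2 -0.54), and *Mki67*, the gene of Ki-67, at 105, 221 and 144 against 97.5, 295 and 209 (log2 -0.30 ± 0.10 (SE, n = 3 libraries), adjusted p = 0.039, edgeR). *Mki67* was lower in 2 of 3 libraries and not with sIL-2. Without the sIL-2 + IL-21 library 3 genes of the list were called lower, and with pairs matched also on proliferation RNA, 4 were called lower and 2 higher.

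Metabolic and stress genes were split. Of 20 glycolysis and hypoxia genes, 8 were higher and 1 lower, beside 15.4% and 15.2% of all genes (median log2 0.17); 5 were higher without the IL-2/21-Trikine library and 4 with DESeq2. With all 3 libraries and edgeR the called genes included the glucose transporter gene *Slc2a3* (log2 0.77) and the hypoxia-induced mitophagy gene *Bnip3* (log2 0.91) on the higher side and the hexokinase gene *Hk2* (log2 -0.55) on the lower. Of 5 genes of metal binding and zinc transport, 3 were higher, all metallothioneins, with *Mt1* at 232, 344 and 786 CPM against 61.8, 118 and 519.8 (log2 1.31), and the class difference of *Mt1* was smallest in the sIL-2 + IL-21 library, where both classes were highest. The 3 include *Mt3*, at 2.53, 3.52 and 9.06 CPM against 0.141, 1.18 and 2.81. It was low in the partners, so its direction is no support. Of 10 heat shock genes, 2 were higher and 5 lower, among them the mitochondrial chaperone gene *Hspd1*, at 201, 319 and 229 CPM against 482, 546 and 441 (log2 -0.98). Of 16 interferon-stimulated genes tested, 4 were higher and 0 lower (median log2 0.17), *Mx1* (log2 0.68) and *Isg20* (log2 0.66) among them. Against cells lacking at least 1 of the 3 rule genes, 2 of this list were higher and 3 lower (median log2 -0.05), with at least 2 UMIs of each rule gene 2 and 2 (median -0.02), and without the sIL-2 + IL-21 library 2 and 0. Of 11 costimulatory receptor genes 2 were higher and 2 lower, shares close to those of all genes. Leaving out 1 library gave 0 or 1 higher costimulatory genes, and without the sIL-2 + IL-21 library 1 heat shock gene and 1 STAT target gene were higher.

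**Figure D3:**
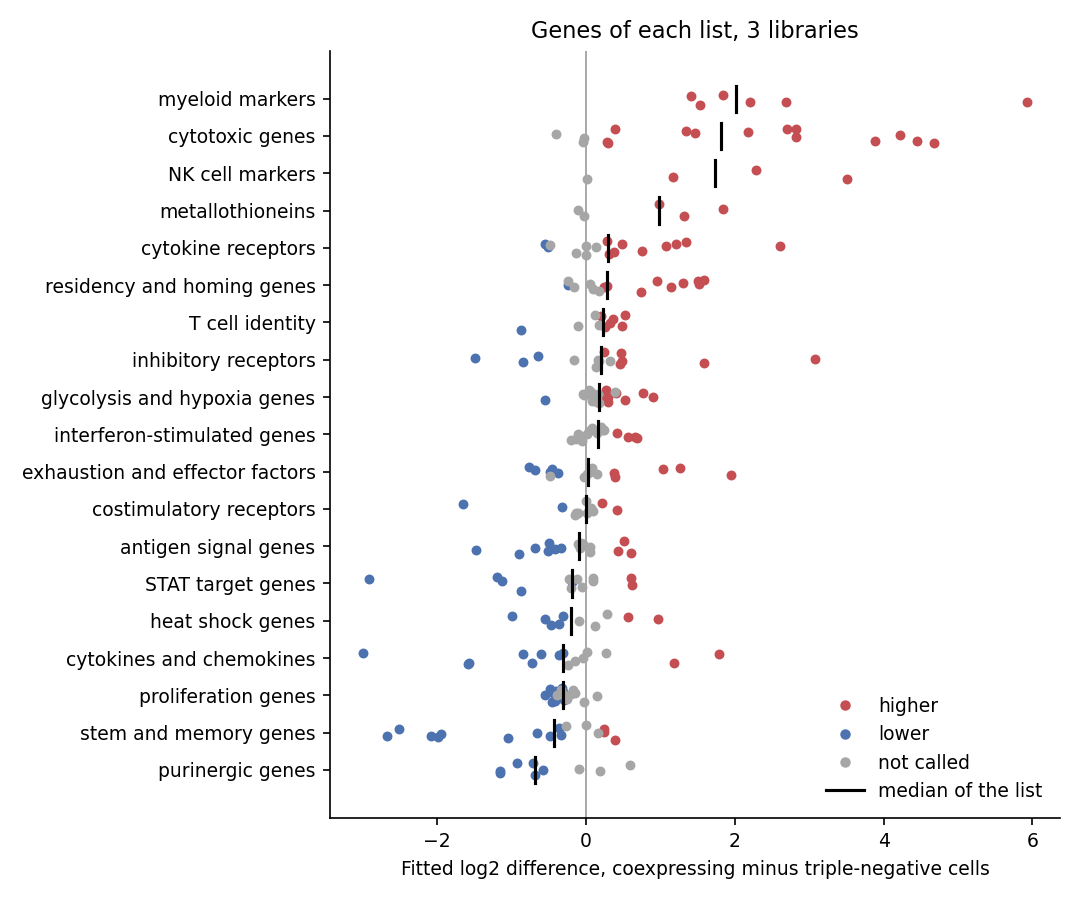
Log2 difference of each tested gene of each list between coexpressing cells and depth-matched cells lacking all 3 genes (horizontal axis, edgeR fit over 3 libraries), with 1 point per gene, colored by its call, and a bar at the list's median. The lists of other cell types shown are those for myeloid and NK cells. The cytotoxic list has its median at 1.82 and the stem and memory list at -0.42, beside 0.00 for all genes tested.

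Beyond the lists, the genes named by size of difference included *Dscam* (ENSMUSG00000050272), known as a cell adhesion molecule of the nervous system, at 68.2, 89.7 and 105 CPM against 2.26, 6.35 and 10.2 (log2 3.81 ± 0.16 (SE, n = 3 libraries), adjusted p = 1.4e-08, edgeR). *Ly6a2*, a gene of the Ly6 family with close paralogs and so of uncertain counting, was at 62.6, 59.3 and 97.8 CPM against 4.09, 3.54 and 10.2 (log2 3.66), and *Mamdc2* at 16.001, 14.8 and 38.4 against 1.13, 0.725 and 9.43 (log2 2.76). *Mamdc2* was low in the partners, so its direction is no support. *Crabp2* (ENSMUSG00000004885), which encodes a carrier of retinoic acid, had the lowest mean log2 ratio, at 5.47, 5.69 and 1.68 CPM against 49.3, 27.4 and 20.8 (log2 -2.86 ± 0.19 (SE, n = 3 libraries), adjusted p = 2.9e-07, edgeR). *Aff3* was at 34.1, 24.1 and 11.6 CPM against 146, 96.6 and 71.97 (log2 -2.19). *Marcksl1*, *Itm2a*, *Ramp3*, *Crtam* and *Cnih2* completed the lowest 10, with log2 differences of -1.80, -1.84, -1.71, -1.64 and -1.61.

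*Fcer1g* (ENSMUSG00000058715), which encodes a signaling adapter of Fc and NK cell receptors, was at 322, 192 and 324 CPM against 29.6, 9.97 and 39.6 (log2 3.51 ± 0.16 (SE, n = 3 libraries), adjusted p = 1.9e-08, edgeR). NK cells and myeloid cells also express it, so both marker lists were read beside it. Of the 7 NK cell markers, *Fcer1g*, *Klrb1c* and *Tyrobp* were called higher, *Klrk1* was not called, and *Ncr1*, *Klra8* and *Klra4* did not pass the count filter; in the paired coexpressing cells *Klra8* and *Klra4* were at 0 in each library and *Ncr1* in all but the sIL-2 + IL-21 library. The 7 markers summed to 921, 671 and 746 CPM in those cells against 584, 491 and 438 CPM in their partners, and *Klrk1*, which CD8 T cells also express, was the most abundant. *Tyrobp* was low, at 8.14, 7.23 and 4.14 CPM against 5.64, 1.09 and 2.81, so its direction is no support. Without cells holding UMIs of 2 or more myeloid genes, *Fcer1g* and *Klrb1c* were called and *Tyrobp* was not, and the log2 difference of *Fcer1g* was 3.46.

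Of 15 myeloid markers, 6 passed the filter on low counts; their directions are not counted, since a gene near 0 in the partners can pass only through the coexpressing cells. *Il1b*, for example, was at 6.32, 12.7 and 1.57 CPM against 0, 0.272 and 0. The summed level over the 15 genes was 34.2, 50.4 and 34.3 CPM in the paired coexpressing cells against 9.74, 7.07 and 7.75 CPM in their partners, with 11, 14 and 11 of the genes detected. The most abundant were *Cd68* at 15.8 CPM with sIL-2, *Il1b* at 12.7 CPM with IL-2/21-Trikine and *Cd68* at 14.8 CPM with sIL-2 + IL-21. In the sIL-2 library the defining markers *C1qa*, *C1qb*, *S100a9* and *Mrc1* were at 0, in the IL-2/21-Trikine library *Adgre1* was, and in the sIL-2 + IL-21 library *Csf1r*, *C1qb*, *S100a8* and *Mrc1* were. *Il1b* UMIs came from 1, 5 and 1 of the paired coexpressing cells. Over all coexpressing cells, each of the 15 markers was detected in every library.

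Of the 10 T cell identity genes, 6 were higher and *Cd5*, a negative regulator of T cell receptor signaling, was lower (log2 -0.86). The 2 tested markers of CD4 and regulatory T cells and the 1 of melanoma cells were not called, 1 of 2 tested B cell markers was lower (*Ighm*, log2 -1.18), and 0 red blood cell markers passed the filter. Cells with UMIs of 2 or more myeloid genes made up 6.89%, 3.86% and 3.89% of all coexpressing cells, against 2.28%, 1.03% and 1.73% of all cells within the limits, and 208 of the 431 such cells were coexpressing. With such cells left out, 1656 genes were called higher and 1697 lower, with 13 higher genes on the cytotoxic list and 10 lower on the stem and memory list. The summed melanoma markers were at 10.7, 7.95 and 7.49 CPM in paired coexpressing cells against 6.35, 92.0 and 6.4 CPM in their partners, so tumor RNA was higher in the partners of the IL-2/21-Trikine library, where *Dct* led with 24.7 CPM. The part of myeloid or tumor RNA in other gene differences was not tested beyond these values.

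For some genes the levels were ordered by the number of the 3 transcripts a cell held. In cells matched on depth with 0, 1, 2 and 3 of them, *Gzmc* was at 277, 1093, 2165 and 3128 CPM in the sIL-2 library, 663, 1555, 2787 and 4597 CPM with IL-2/21-Trikine and 1659.8, 2656, 4396 and 5908 CPM with sIL-2 + IL-21. *Tcf7* was at 109.5, 75.2, 37.3 and 18.5 CPM in the sIL-2 library, 76.4, 54.8, 33.8 and 15.2 CPM with IL-2/21-Trikine and 53.1, 24.8, 9.61 and 4.69 CPM with sIL-2 + IL-21. *Gzmc* was thus higher and *Tcf7* lower at every step in every library. Of the genes on the lists, 34 of 86 called higher (39.5%) and 17 of 70 called lower (24.3%) were ordered by number in all 3 libraries. These genes were called between cells with 0 and 3 transcripts, so the ends of the order were set by that choice. The share over all genes was not counted, so these counts are a description only. *Xcl1* was ordered in 2 of the 3 libraries.

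Cells with 1 transcript differed by which it was. Not every paired coexpressing cell had a match of each pattern. Cells with *Entpd1* alone numbered 215, 327 and 211, and cells with *Havcr2* and *Entpd1* 222, 202 and 249. With all 3 transcripts there were 436, 572 and 570, so the patterns are not fully alike in depth. *Xcl1* was highest in cells with *Havcr2* alone, at 10218, 11056 and 9904 CPM, above the 6276, 4661 and 4566 CPM of cells lacking all 3 and the 2252, 2422 and 2230.4 CPM of cells with *Entpd1* alone. *Gzmb* was higher with *Havcr2* alone, at 3093, 3568 and 4733 CPM, than with *Pdcd1* alone, at 1761, 2197 and 2455 CPM, in each library. *Tcf7* with *Entpd1* alone, at 119, 82.6 and 56.01 CPM, was near its level in cells lacking all 3, at 109.5, 76.4 and 53.1 CPM. The coexpressing cells had the lowest *Xcl1* and *Tcf7* and the highest *Prf1* of all 8 patterns in each library.

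**Figure D4:**
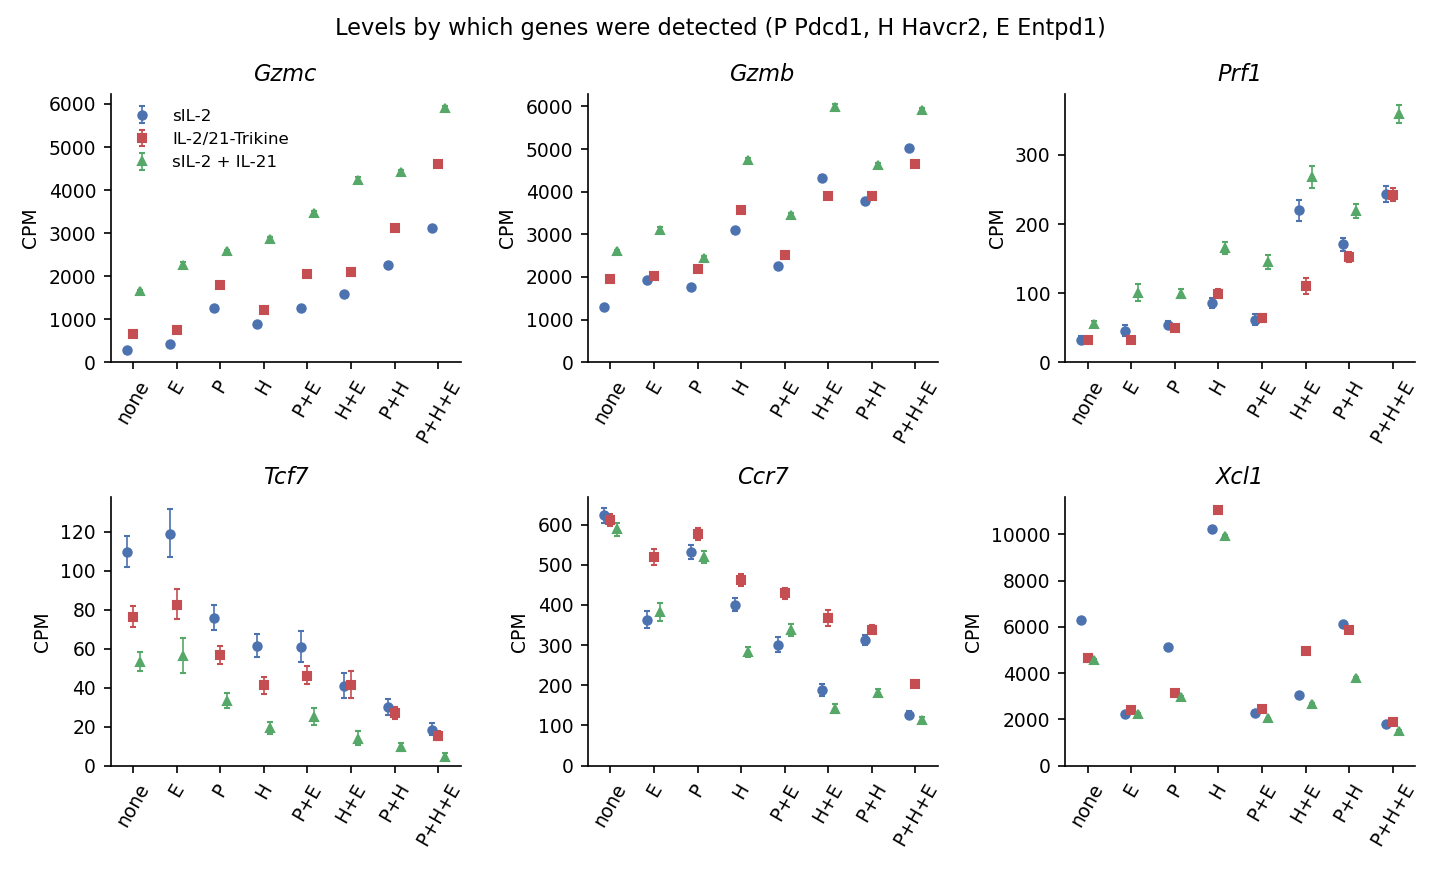
Levels (CPM, linear axis) of *Gzmc*, *Gzmb*, *Prf1*, *Tcf7*, *Ccr7* and *Xcl1* in depth-matched cells by which of *Pdcd1* (P), *Havcr2* (H) and *Entpd1* (E) had a UMI, with 1 point per library and exact Poisson 95% intervals. *Xcl1* peaks with H alone in each library, at 9904 to 11056 CPM, and *Tcf7* is lowest with all 3 transcripts. Cell numbers differ between patterns, from 202 (H and E) to 572 (all 3) in the IL-2/21-Trikine library.

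Few genes differed by a large fold between the coexpressing cells of the 3 libraries. A gene was counted when its log2 ratio between the coexpressing cells of 2 libraries, taken as CPM with 5 CPM added, was past 1 in size and it reached 50 CPM in either. In the IL-2/21-Trikine library relative to sIL-2, 8 of 3116 genes (0.257%) passed, 1 higher and 7 lower. In the IL-2/21-Trikine library relative to the combined preconditioning, 21 of 3031 (0.693%) passed, 11 higher and 10 lower. In the combined preconditioning relative to sIL-2, 26 of 3142 (0.827%) passed, 6 higher and 20 lower. With 1 library a treatment these counts carry no test, and library and treatment cannot be told apart.

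In the matched cells lacking all 3 genes, the same rule passed 88 genes higher and 19 lower of 3270 in the first of these pairs. It passed 2 higher and 12 lower of 3068 in the second, and 49 higher and 26 lower of 3225 in the last. Fewer UMIs were summed in these cells, about 7086040, 11027500 and 8906270, against 40613505, 23354329 and 62622481 in all coexpressing cells. Of the genes that passed in coexpressing cells and could be compared in both, 4 of 5, 5 of 16 and 9 of 22 also passed in the cells lacking all 3.

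The genes lower in coexpressing cells with IL-2/21-Trikine included *Gzma*, *Klra5* and *Fcer1g*. *Gzma* was at 5797 [5774, 5820.5], 2143 [2125, 2162] and 5460.5 [5442, 5479] CPM over all coexpressing cells (exact Poisson 95% intervals), and its IL-2/21-Trikine level had a log2 ratio of -1.43 to the first and -1.35 to the last. *Klra5*, an NK receptor gene with close paralogs and so of uncertain counting, was at 194, 79.2 and 197 CPM, and *Fcer1g* at 367, 172 and 276 CPM. They were also lowest with IL-2/21-Trikine in the cells lacking all 3 transcripts, where *Klra5* was at 54.9, 26.1 and 106 CPM and *Fcer1g* at 29.6, 9.98 and 39.6. *Ccl5*, an inflammatory chemokine, was highest with sIL-2, at 1325 [1314, 1337], 575 [565, 585] and 446 [441, 452] CPM, as it was in the cells lacking all 3, at 1858, 437 and 729.8 CPM.

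The 1 gene past the fold upward in the IL-2/21-Trikine cells relative to sIL-2 was *Cd74*, the MHC class II invariant chain, at 18.2 [16.95, 19.6], 60.2 [57.1, 63.4] and 29.03 [27.7, 30.4] CPM, and it was also higher in the cells lacking all 3, at 11.1, 65.02 and 45.02 CPM. *Il1b* was at 1.58, 28.3 and 3.07 CPM, and the 15 myeloid markers summed over all coexpressing cells to 21.4, 93.6 and 22.4 CPM, highest with IL-2/21-Trikine; the part of myeloid RNA in the *Cd74* difference was not tested. *Fabp5*, a fatty acid carrier gene, was at 90.1 [87.2, 93.04], 154 [149, 159] and 248 [245, 252] CPM, lowest with sIL-2, and in the same order in the cells lacking all 3, at 67.3, 151 and 172 CPM.

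Coexpressing cells of the sIL-2 + IL-21 library had the highest levels of *Mt1* and *Mt2* and the lowest of several genes named by their ratios, some of them interferon-induced. *Mt1* was at 405 [399, 411], 396 [387, 404] and 1377 [1368, 1386] CPM and *Mt2* at 229 [224, 233], 183 [178, 189] and 723 [717, 729.9] CPM, with a log2 ratio of 1.75 for *Mt1* relative to sIL-2. *Mt1* was highest there in the cells lacking all 3 as well, at 61.8, 118 and 519.7 CPM. *Ifi27l2a*, an interferon-induced gene, was lowest there, at 490.2 [483, 497], 594 [585, 604] and 179 [176, 182] CPM, and so were *Ms4a4c* at 228, 272 and 98.9 CPM, *Ifi214* at 74.2, 65.3 and 18.1 CPM and *Ifi206* at 54.3, 51.98 and 17.3 CPM. In the shallower paired coexpressing cells *Mx1*, at 71.9, 33.1 and 30.6 CPM, and *Ifit1*, at 37.2, 9.67 and 8.95 CPM, both of the interferon-stimulated list, were highest with sIL-2 and close between the other libraries, while over all coexpressing cells they were at 39.1, 30.5 and 19.4 and 17.9, 10.7 and 3.58 CPM. *Tnfsf8*, the gene of CD30 ligand, was at 215 [211, 220.0], 185 [179.8, 191] and 70.9 [68.8, 73.02] CPM, again lowest there. The low values of *Ifi27l2a*, *Ms4a4c*, *Ifi214*, *Ifi206* and *Tnfsf8* are not shown here to be particular to coexpressing cells. Per cell, the interferon-stimulated list had a median share of UMIs of 0.0610%, 0.0670% and 0.0425% over all coexpressing cells. In the matched cells lacking all 3 it was 0.0712%, 0.0684% and 0.0485%, so it was lowest with sIL-2 + IL-21 in both.

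The exhaustion factor *Tox* was at 31.2 [29.5, 32.99], 35.6 [33.2, 38.1] and 7.04 [6.4002, 7.73] CPM and *Tcf7* at 23.02 [21.6, 24.5], 26.2 [24.2, 28.4] and 5.56 [4.99, 6.17] CPM in all coexpressing cells, both lowest with sIL-2 + IL-21, where the intervals cover counting error only and the difference between libraries was not tested. For both genes the sIL-2 + IL-21 library was also lowest among cells lacking all 3, at 33.02, 45.4 and 16.3 CPM for *Tox* and 109.5, 76.4 and 53.1 CPM for *Tcf7*. *Il1r2* was highest there, at 32.1 [30.3, 33.8], 28.003 [25.9, 30.2] and 90.2 [87.9, 92.6] CPM, and *Lmna*, the gene of lamin A/C, was at 26.3, 19.95 and 58.2 CPM. *Gzmb*, at 5339, 4744 and 7337 CPM, and *Prf1*, at 363, 243 and 440.1 CPM, stayed within the fold in each pair of libraries.

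**Figure D5:**
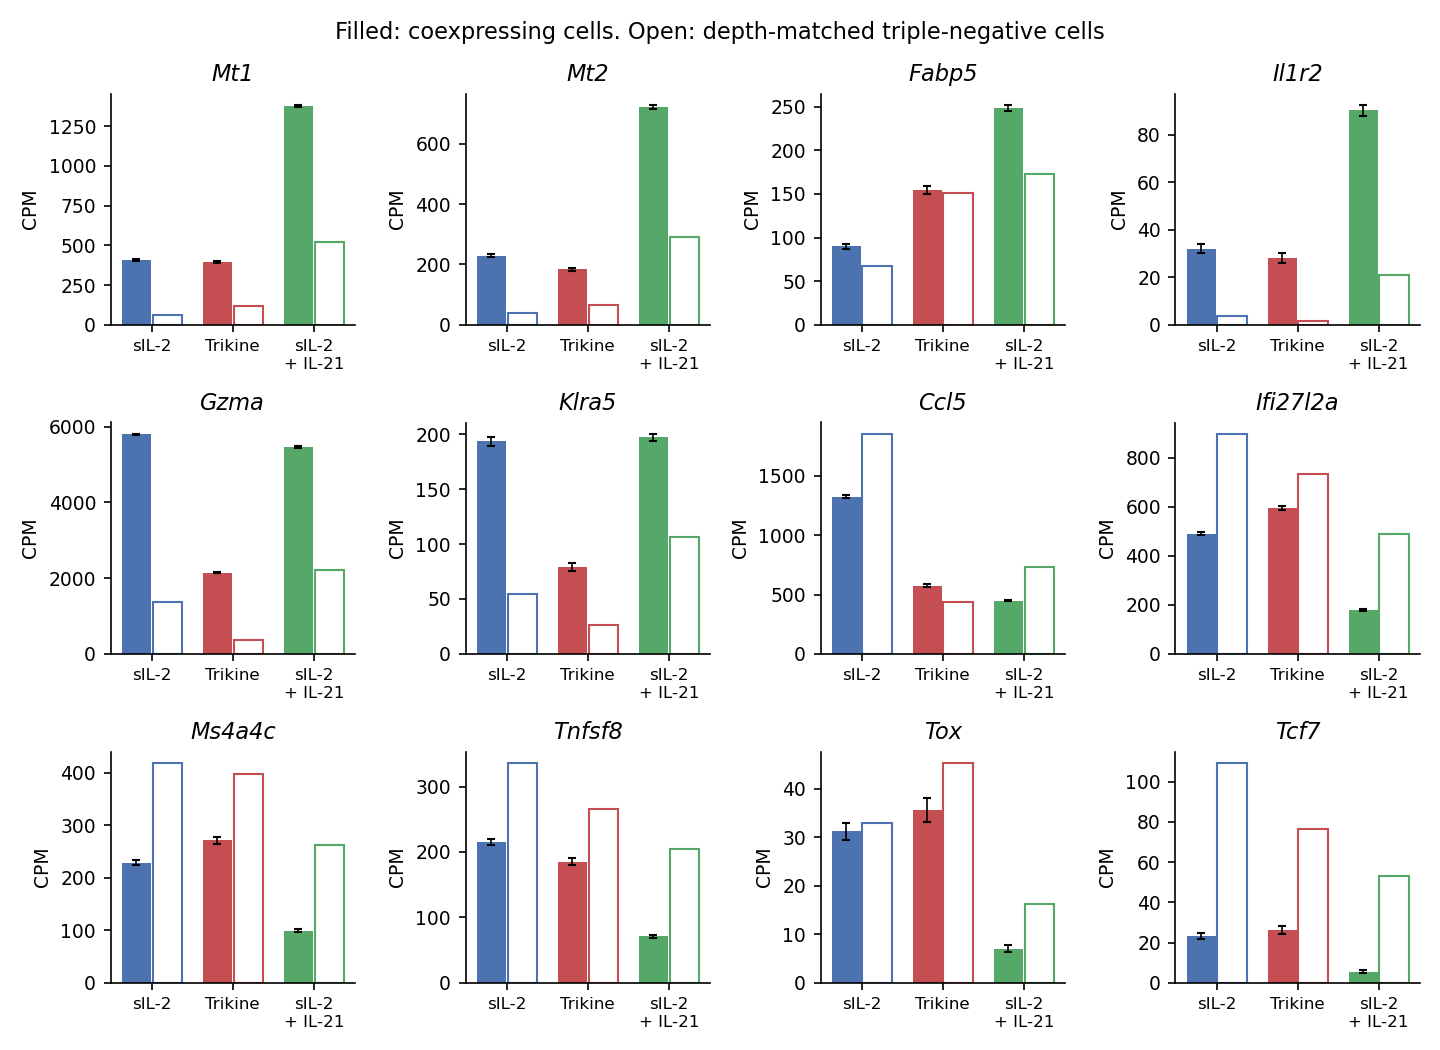
Levels (CPM, linear axis from 0) of 12 genes in the 3 libraries, with filled bars for all coexpressing cells (exact Poisson 95% intervals) and open bars for the cells lacking all 3 genes that were paired on depth to the shallower coexpressing cells. *Mt1* and *Mt2* are highest with sIL-2 + IL-21 in both classes, *Gzma* is lowest with IL-2/21-Trikine in both, and *Tox* and *Tcf7* are lowest with sIL-2 + IL-21 in both.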

How the data were processed

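Sorted Thy1.1+CD8+ cells of 3 treatments were profiled by 10x 3′ sequencing, 1 library per treatment. The deposited matrices hold raw UMI counts per gene (33696 genes) and called cell, which the authors made with Cell Ranger; the submitters' processing notes name mm10 and the methods a later mouse build with intronic reads counted, so no coordinates are given; gene order comes from RefSeq (GRCm38.p6). The cells, gene lists and tests were chosen with earlier results of these data known.

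Cells were kept and chosen by the stated rule. Matched sums left out the 3 rule genes, and genes that passed filterByExpr were tested with edgeR 4.0.16 (R 4.3.3; TMM, quasi-likelihood test, Benjamini-Hochberg adjustment over 11149 genes). The library was a block because both classes of a library came from the same sort; the study tested single cells, which are not replicates. The fit was also run on simulated counts with known changes, drawn with 1 fixed dispersion and the same change in each library. Differences such as that of *Gzmf* were unequal between the libraries, so the simulation does not give the error rate in these data. Genes named in the text were members of the gene lists, the 10 highest and 10 lowest mean log2 ratios among genes called in the same direction in all 3 libraries with at least 20 CPM in either class, and, between libraries, the 5 highest and 5 lowest ratios of each pair with at least 50 CPM; receptor and immunoglobulin segments were left out, and some listed genes are counted but not reported here by name. Intervals are exact 95% binomial or Poisson intervals. Alternatives were RLE factors, DESeq2 1.42.0, other filters, depth matching, thinning, thresholds and comparison cells, and each library left out. Doublets were not removed: Scrublet (scanpy 1.11.5) marked no cell, so its score served only to leave out the highest 10% as an alternative. Python 3.11.15, numpy 2.4.6, scipy 1.17.1 and pandas 2.3.3 were used.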

Additional observations from a re-analysis of the deposited data

Results flagged for a closer look

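The summed level of *Tox* differed in direction between libraries. Its log2 ratio of coexpressing to matched cells lacking all 3 genes was 0.59 in the sIL-2 library, -0.28 in the IL-2/21-Trikine library and -0.54 in the third library, sIL-2 + IL-21, a spread of 1.13. The share of cells with a *Tox* UMI did not show the higher value with sIL-2, at 105 of 436 coexpressing cells and 107 of 436 partners. With 1 library a treatment the difference between libraries was not tested.

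Some cells below the UMI limit, used only in the alternative with at least 500 UMIs, also held all 3 transcripts. Among cells of 500 to 5000 UMIs, 9 of 481 (1.87%) were coexpressing in the sIL-2 library, 8 of 2570 (0.311%) in the IL-2/21-Trikine library and 9 of 907 (0.992%) in the sIL-2 + IL-21 library.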

How the results depend on the processing

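The counts of genes called, 1721 higher and 1691 lower, depended on the comparison cells and the model. Against cells lacking at least 1 of the 3 genes they were 1132 and 966, with cells thinned to 5000 UMIs 963 and 966, and with DESeq2 725 and 846; with at least 2 UMIs of each gene 1140 were higher. With no replicate block they were 208 and 88, and 296 of the 3412 calls were shared, so most calls rest on pairing the classes within a library. Leaving out 1 library gave 859 to 1540 higher and 839 to 1543 lower, the lowest of both without sIL-2 + IL-21. The other alternatives stayed within 1.5 times. Of 263 genes named or listed, direction and call were unchanged for 136 with no replicate block, 206 against cells lacking at least 1 gene, 216 with DESeq2 and 238 without cells with myeloid RNA. Against cells lacking at least 1 gene, the log2 difference of Rgs16 (-0.0074), of *Egr3* (-0.19) and of *Hspa1b* (-0.015) changed sign, as did that of *Ube2c* (0.21) with pairs matched on proliferation RNA; the cause was not tested.

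The share of coexpressing cells with IL-2/21-Trikine over sIL-2 was 0.326 after thinning to 5000 UMIs, 0.283 with at least 2 UMIs of each gene, 0.378 for cells of at least 500 UMIs, 0.478 for at least 10000 UMIs and 0.563 weighted to 1 depth distribution. Over the combined preconditioning (sIL-2 + IL-21) the same settings gave 0.294, 0.238, 0.293, 0.376 and 0.462. With sIL-2 over the combined preconditioning it was 0.901 after thinning to 5000 UMIs, 0.828 after thinning to 10000, 0.841 with at least 2 UMIs and 0.821 weighted. All stayed below 1. With a floor of 20 CPM, 17, 42 and 49 genes passed the fold in the same 3 pairs of libraries, the last taken the other way round, and with at least 2 UMIs of each gene the part higher among those that passed went from 12.5% to 44.4% in the first pair and from 52.4% to 66.7% in the second. Depth limits the rule itself, since a transcript without a UMI is not shown to be absent.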

Other observations

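Several of the genes highest in coexpressing cells neighbor each other in the RefSeq gene order, a description made after their values were seen. *Gzme*, *Gzmd*, *Gzmg*, *Gzmf*, *Gzmc* and *Gzmb* lie in that order on chromosome 14 with only *Gzmn*, which did not pass the count filter, between them, and their log2 differences were 3.88, 4.45, 4.22, 4.67, 2.70 and 1.46. The direction of *Gzmg*, near 0 in the partners, is no support. *Igsf5*, a junctional adhesion molecule gene that is the third protein-coding gene before *Dscam* on chromosome 16, was also higher (log2 2.18, adjusted p = 7.2e-08, edgeR), whereas *Bace2*, on the other side of *Dscam*, was not called (log2 0.21, adjusted p = 0.41, edgeR).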
